A study of Mus musculus with 12 samples.

Results

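Collagens are the chief structural proteins of the extracellular matrix, and this account follows the whole collagen gene family in livers that develop bile duct disease and scarring. The members are all probe sets whose single gene symbol has the form of a collagen chain (Col, a type number, a, a chain number), 58 probe sets of 36 genes among the 22626 probe sets tested. They fall into 17 probe sets of 9 fibrillar genes, 9 probe sets of 6 basement membrane genes and 32 probe sets of 21 other genes. For 17 genes the array carries 1 probe set and for 19 genes several, and every probe set is counted below.

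Each collagen chain coils with partner chains into a rod-shaped helix that is trimmed outside the cell and crosslinked. Fibrillar collagens build the tension-bearing fibrils of scar tissue, type IV collagens form the sheet-like network of basement membranes, and the remaining types sit on fibrils, form beaded filaments or other networks, or span the cell membrane. In injured liver, activated stellate cells and portal fibroblasts are known as the main makers of fibrillar collagen.

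Livers of 12 male mice, in 4 groups of 3, were profiled singly on Affymetrix MOE430A arrays. Het_3M and Het_12M are the Mdr2-KO heterozygous mice at 3 and 12 months, and KO_3M and KO_12M are the Mdr2-KO homozygous mice at the same ages. Mdr2, now named Abcb4, is the phospholipid transporter of the bile canaliculus, and its loss gives chronic bile duct inflammation and later liver tumours in mice. The heterozygous controls carry the knockout allele too, different animals were used at the 2 ages, and neither the strain nor whether a sample held tumour tissue is given in the labels or the design text.

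Values are MAS 5.0 signals, a linear intensity in arbitrary units. The signal of Abcb4 itself was 728.7, 677.9 and 763.3 in Het_3M against 280.8, 295.5 and 385.7 in KO_3M, and 591.8, 601.3 and 675.4 in Het_12M against 293.2, 243.4 and 332.2 in KO_12M, so the groups did not overlap at either age (log2 fold change -1.15 ± 0.14 and -1.07 ± 0.14, adjusted p 0.000142 and 0.000324). All 8 hepatocyte markers counted, of 10 listed, were above the 10th percentile of signal on all arrays. The arrays were scanned in 3 sessions, and no session held both genotypes at 1 age: the first held Het_12M and mouse 1 of Het_3M, the second the other Het_3M mice and mice 1 and 2 of KO_12M, and the third KO_3M and mouse 3 of KO_12M. A fit with session as a block is possible only by chaining across the ages, and its values are given beside the calls. Mouse 1 of Het_3M was the only mouse of its group in the first session, and mouse 3 of KO_12M in the third. In that fit the knockout difference at 12 months rests on the former array and that at 3 months on the latter. In both 3-month groups mouse 1 has a source label of 12 months but a title and an age field of 3 months. The title was followed. The actin 3' to 5' ratio, a sign of RNA quality, averaged 7.0 ± 1.64 (SD) in Het_3M and 4.92 ± 1.59 in KO_3M, and 3.64 ± 0.56 in Het_12M and 2.79 ± 0.44 in KO_12M. In whole liver, more cells of a type and more RNA per cell cannot be told apart.

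The promoters of 4 genes that were called higher in the knockout at both ages and carry the results below are printed here, from 250 bases before to 50 bases after the annotated start (RefSeq, GRCm38.p6, 5′ to 3′ on the strand of the gene). Capitals mark the motif CCAAT, the motif TATAAA and the motif GGGCGG, each on either strand and none overlapping another in these windows. Col3a1 lies at chr1:45311288-45311587 on the plus strand and Col1a2 at chr6:4505368-4505667 on the plus strand. Col4a1 (chr8:11312777-11313076, minus strand) and Col4a2 (chr8:11312555-11312854, plus strand) start head to head, and their windows share 78 bases.
Col3a1: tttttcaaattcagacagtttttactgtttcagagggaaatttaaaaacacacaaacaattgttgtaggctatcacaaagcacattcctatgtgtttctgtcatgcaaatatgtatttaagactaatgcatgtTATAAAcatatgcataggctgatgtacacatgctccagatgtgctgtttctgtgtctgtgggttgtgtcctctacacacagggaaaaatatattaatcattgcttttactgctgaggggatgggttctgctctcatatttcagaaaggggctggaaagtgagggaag
Col1a2: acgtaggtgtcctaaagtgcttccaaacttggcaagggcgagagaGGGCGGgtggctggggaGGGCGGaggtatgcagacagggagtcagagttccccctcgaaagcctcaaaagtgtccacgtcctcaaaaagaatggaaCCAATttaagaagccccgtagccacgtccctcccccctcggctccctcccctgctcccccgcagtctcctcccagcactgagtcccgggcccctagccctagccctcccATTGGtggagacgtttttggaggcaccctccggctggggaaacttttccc
Col4a1: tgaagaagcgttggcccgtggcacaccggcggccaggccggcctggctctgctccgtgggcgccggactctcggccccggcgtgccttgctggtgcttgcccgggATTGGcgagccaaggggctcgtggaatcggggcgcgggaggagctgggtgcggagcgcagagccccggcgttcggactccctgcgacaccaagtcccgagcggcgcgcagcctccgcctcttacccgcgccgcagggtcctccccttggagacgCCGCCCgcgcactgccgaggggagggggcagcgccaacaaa
Col4a2: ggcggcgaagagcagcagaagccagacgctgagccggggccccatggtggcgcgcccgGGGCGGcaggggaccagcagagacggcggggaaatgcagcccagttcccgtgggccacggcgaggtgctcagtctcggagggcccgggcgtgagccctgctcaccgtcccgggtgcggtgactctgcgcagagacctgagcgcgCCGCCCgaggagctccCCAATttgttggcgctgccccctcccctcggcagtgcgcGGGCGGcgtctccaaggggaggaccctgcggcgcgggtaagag
The Col3a1 window had a GC content of 37.7% and held 1 TATAAA and neither other motif. The Col1a2 window (GC 61.0%) held 2 CCAAT and 2 GGGCGG. The Col4a1 window (GC 74.0%) held 1 CCAAT and 1 GGGCGG, and the Col4a2 window (GC 73.7%) held 1 CCAAT and 3 GGGCGG. The GGGCGG of the Col4a1 window and the last of the Col4a2 window are the same site, within the bases they share. Among all 32851 promoter windows of this length in the table, 37.4% held CCAAT, 13.6% TATAAA and 35.7% GGGCGG, with a median GC content of 52.7%. Windows were matched for 27 of the 36 collagen genes (30 windows), of which 40.0% held CCAAT, 16.7% TATAAA and 56.7% GGGCGG. These matches describe the letters of the windows only.

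At 3 months, the question was which collagens differ between knockout and heterozygous livers at the earlier stage. The chains of types I and III, 1 type V chain (Col5a2), 3 type IV chains and the type VI chains were called higher in the knockout by at least 1 probe set each, led by Col3a1 at 5.75 times the heterozygous mean signal. Of the fibril-associated chains of other types, Col14a1 was called higher and 3 were called lower. Of the 58 collagen probe sets, 14 (of 11 genes) were called higher and 3 lower at an adjusted p under 0.05, where 6.13% of all probe sets were called higher and 7.66% lower. The share of collagen probe sets called lower was thus not above that of all probe sets. Fibrillar collagens had 6 of 17 probe sets higher and none lower, basement membrane collagens 4 of 9 higher and none lower, and other collagens 4 of 32 higher and 3 lower. The median log2 fold change was 0.45 in the fibrillar, 0.42 in the basement membrane and -0.01 in the other group, and 0.06 over all 58, beside -0.085 over all probe sets. In 18 collagen probe sets all 3 KO_3M mice lay above all 3 Het_3M mice, and in 12 all lay below (12.7% and 23.1% of all probe sets). With session as a block, 3 of the 17 calls remained (Col3a1, Col5a2 and Col22a1), and all 17 kept their sign. Over the whole table that fit called 206 probe sets higher and 211 lower, in place of 1388 and 1734. Without the arrays with the conflicting age label 7 probe sets were called, and without mouse 1 of KO_3M 11. Over the whole table those fits called 854 higher and 738 lower, and 1157 and 1088, in that order. In the former fit the calls of Col1a1 (1.25, adjusted p 0.0552), the dimmer Col1a2 probe set (1.02, 0.106), the dimmer Col3a1 probe set (0.82, 0.116), Col5a2 (1.00, 0.123) and Col4a5 (0.60, 0.142) were lost. Lost there too were those of Col6a1 (0.73, 0.134), Col6a2 (1.80, 0.103), Col14a1 (0.52, 0.185), Col16a1 (-0.52, 0.176) and Col19a1 (-0.73, 0.113).

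At 12 months, the comparison asked the same at the later stage. Both type I chains, the type III chain, 3 type IV chains (Col4a1, Col4a2 and Col4a5), Col5a3 and Col6a1 were called higher in the knockout, and no collagen was called lower. Of the 58 probe sets, 9 (of 8 genes) were called higher, where 3.46% of all probe sets were called higher and 1.83% lower. These were 4 of 17 fibrillar, 4 of 9 basement membrane and 1 of 32 other probe sets, with medians of 0.39, 0.33 and 0.06. Over all 58 the median was 0.20, beside 0.03 over all probe sets. All 3 KO_12M mice lay above all 3 Het_12M mice in 17 collagen probe sets and below them in 2 (12.6% and 9.38% of all probe sets). With session as a block none of the 9 calls remained (limma, with all 9 of the same sign), and over the whole table that fit called 45 probe sets higher and 20 lower. Called higher at both ages were 8 probe sets (of the 14 at 3 months and of the 9 at 12 months) of 7 genes, Col1a1, Col1a2, Col3a1, Col4a1, Col4a2, Col4a5 and Col6a1. The probe set of Col5a3 was called at 12 months and not at 3, and 6 probe sets at 3 months and not at 12.

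**Figure D1:**
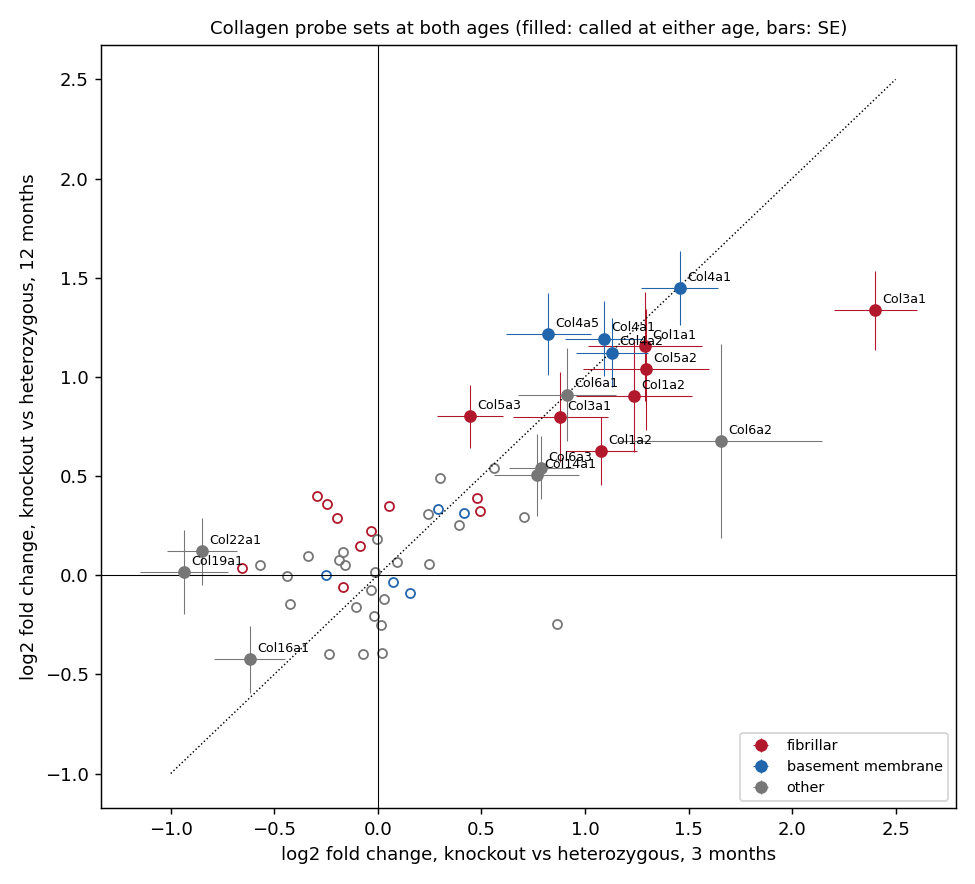
Log2 fold change, knockout against heterozygous, at 3 months (x axis) and 12 months (y axis) for all 58 collagen probe sets, coloured by class, with filled points for those called at either age and bars for the standard error; the dotted line marks equal values. Col3a1 lies farthest right at 2.40 and 1.34, the type IV chains near the line, and Col16a1, Col19a1 and Col22a1 left of 0.

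Among the fibrillar collagens, Col3a1, the chain of type III collagen that is abundant in early scar, had signals of 196.9, 169.9 and 196.6 in Het_3M and of 1374, 844.8 and 1021 in KO_3M. In the older mice the signals were 156.7, 270.9 and 175.4 in Het_12M and 524.9, 613.5 and 431.3 in KO_12M. All knockout mice were above all heterozygous mice, and the KO_3M mice were above all KO_12M mice. The log2 fold change was 2.40 ± 0.20 (SE, n = 3 mice a group throughout) at 3 months and 1.34 ± 0.20 at 12 months, with adjusted p of 6.2e-06 and 0.00113. With session as a block the values were 2.82 (adjusted p 0.00801) and 1.56 (0.162). A second, dimmer Col3a1 probe set rose at 3 months (0.88 ± 0.23, adjusted p 0.0204; 0.369 with the session block) and stood at 0.80 at 12 months (adjusted p 0.0595). Its 3-month call was lost without mouse 3 of Het_3M (0.73), mouse 1 of KO_3M (0.79) or mouse 3 of KO_3M (0.85).

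Type I collagen, the bulk fibril protein of scar, is built from the chains of Col1a1 and Col1a2. Col1a2 had signals of 152.4, 152.8 and 193.8 in Het_3M against 424.5, 287.9 and 404.3 in KO_3M. At 12 months they were 170.3, 200.2 and 158.6 in Het_12M and 230.6, 279.1 and 338.7 in KO_12M. The groups did not overlap at either age. Col1a2 was higher by 1.08 ± 0.17 on the log2 scale at 3 months (adjusted p 0.00114; 0.63 and 0.274 with the session block). At 12 months it was 0.63 ± 0.17 with an adjusted p of 0.0494, and 21 of 28 other settings lost that call, the session block among them (0.33, adjusted p 0.825). Leaving out 1 mouse at a time lost it in 10 of 12 cases, with values from 0.49 to 0.71. Its dimmer probe set was higher by 1.24 ± 0.28 at 3 months (adjusted p 0.0106; 1.59 and 0.129 with the session block) and 0.90 at 12 months (adjusted p 0.0856).

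Col1a1 had signals of 57.0, 37.7 and 62.6 in Het_3M against 172.7, 126.9 and 151.0 in KO_3M. At 12 months they were 35.4, 73.3 and 21.1 in Het_12M and 112.8, 110.8 and 99.1 in KO_12M. Every knockout mouse exceeded every heterozygous mouse, with the widest scatter in Het_12M. The log2 fold changes were 1.29 ± 0.27 at 3 months (adjusted p 0.00734; 1.5 and 0.163 with the session block) and 1.15 ± 0.27 at 12 months (adjusted p 0.0238; 1.37 and 0.440 with the session block). The 12-month call was lost without mouse 1 (1.10) or 3 (0.87) of Het_12M or mouse 1 (1.12), 2 (1.14) or 3 (1.21) of KO_12M. The other Col1a1 probe set stood at 0.48 and 0.39, with adjusted p of 0.246 and 0.491.

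Type V collagen chains take part in starting fibrils and setting their width. Col5a2 had signals of 10, 16.9 and 10.4 in Het_3M against 79.4, 39.9 and 46.4 in KO_3M, and 18.2, 9.7 and 17.0 in Het_12M against 61.4, 67.5 and 22.9 in KO_12M. The groups did not overlap at either age, and mouse 3 of KO_12M was close to the heterozygous mice. The log2 fold change at 3 months was 1.29 ± 0.30 (adjusted p 0.0130), and 2.28 (adjusted p 0.0351) with the session block; it was 1.06 with an adjusted p of 0.0535 without mouse 1 of KO_3M. At 12 months it was 1.04 with an adjusted p of 0.0674. The signals are dim, and the 3-month value ran from 0.63 to 1.82 as the amount added before the logarithm went from 64 to 4. The second Col5a2 probe set, dimmer still, stood at -0.03 and 0.22.

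Col5a3 had signals of 62.7, 80.4 and 77.0 in Het_3M against 98.8, 108.4 and 109.0 in KO_3M, and 92.3, 76.0 and 73.6 in Het_12M against 156.3, 137.6 and 162.1 in KO_12M. The groups did not overlap at either age. The log2 fold change was 0.45 ± 0.16 at 3 months (adjusted p 0.0775) and 0.80 ± 0.16 at 12 months (adjusted p 0.00829; 0.49 and 0.643 with the session block). Its other probe set, near the floor of the arrays, stood at -0.09 and 0.15. The third type V chain, Col5a1, was not called by any of its 3 probe sets (-0.25 to 0.05 at 3 months and 0.29 to 0.36 at 12 months).

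The remaining fibrillar genes, Col2a1, Col11a1 and Col11a2, encode chains best known from cartilage, and none was called between genotypes. Their log2 fold changes ran from -0.65 (Col2a1, adjusted p 0.222) to 0.49 (Col11a2, adjusted p 0.301) at 3 months. The fibrillar calls were therefore all among types I, III and V.

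**Figure D2:**
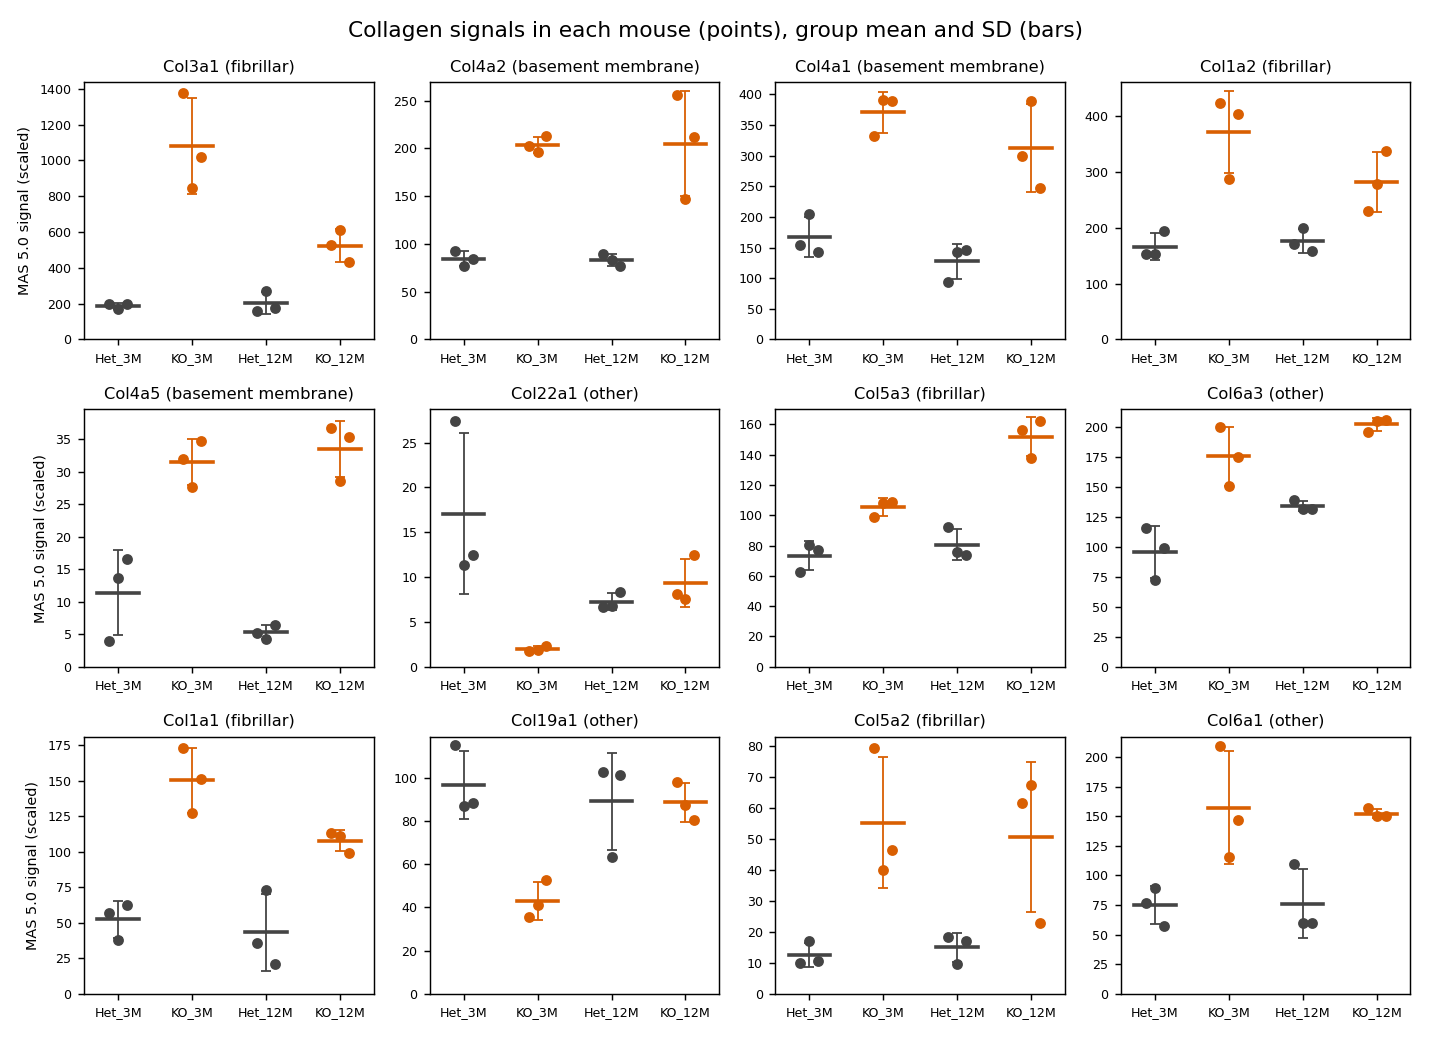
MAS 5.0 signal (y axis, linear, from 0) in each of the 12 mice for 12 collagen genes, with points for mice and bars for the group mean and SD; 1 probe set is shown per gene. Heterozygous mice are grey and knockout mice orange; Col3a1 in KO_3M reaches 1374 against at most 196.9 in Het_3M, and Col22a1 and Col19a1 are lowest in KO_3M.

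Among the basement membrane collagens, Col4a1 and Col4a2 encode the chains of the common type IV network found beneath most epithelia and around vessels. Col4a2 had signals of 92.3, 77.1 and 84.2 in Het_3M against 202.7, 195.7 and 212.5 in KO_3M. In the older mice they were 89.8, 83.4 and 77.3 in Het_12M and 256.4, 147.1 and 211.7 in KO_12M. The groups did not overlap, and the KO_12M mice were spread more widely than the KO_3M mice. On the log2 scale the difference was 1.13 ± 0.17 at 3 months and 1.12 ± 0.17 at 12 months (adjusted p 0.000896 and 0.00144). With session as a block it was 1.07 and 1.25 (adjusted p 0.115 and 0.198).

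The brighter Col4a1 probe set had signals of 154.0, 204.6 and 142.5 in Het_3M against 331.7, 390.9 and 389.3 in KO_3M, and 94.4, 142.1 and 145.8 in Het_12M against 299.0, 390.1 and 248.0 in KO_12M. Again all knockout mice were above all heterozygous mice at both ages. The log2 fold changes were 1.09 ± 0.19 and 1.19 ± 0.19 (adjusted p 0.00204 and 0.00171; 1.48 and 1.20 with the session block, adjusted p 0.0571 and 0.238). The other Col4a1 probe set gave 1.46 ± 0.19 and 1.45 ± 0.19 (adjusted p 0.000211 and 0.000339; 0.0723 and 0.258 with the session block). Col4a1 was the only gene with several probe sets of which all were called at both ages in the fit of all 12 arrays without a block.

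Col4a5, one of the chains of the specialised networks of kidney and other tissues, had 1 called probe set. Its signals were 4.0, 13.6 and 16.5 in Het_3M against 32.0, 27.7 and 34.7 in KO_3M, and 5.2, 4.3 and 6.4 in Het_12M against 36.7, 28.6 and 35.4 in KO_12M. The groups did not overlap, but this probe set was below the array median on all 12 arrays. The log2 fold change was 0.82 ± 0.21 at 3 months (adjusted p 0.0172) and 1.22 ± 0.21 at 12 months (adjusted p 0.00275). With session as a block it was 0.53 and 0.55 (adjusted p 0.337 and 0.617), and the 3-month call was lost without mouse 1 of Het_3M (0.61, adjusted p 0.0808). The values ran from 0.34 to 1.31 and from 0.49 to 2.01 as the added amount went from 64 to 4. The brighter Col4a5 probe set stood at 0.29 and 0.33 (adjusted p 0.446 and 0.514).

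Col4a3, Col4a4 and Col4a6, the other chains of those networks, were not called at either age. Their log2 fold changes ran from -0.25 to 0.42 at 3 months and from -0.09 to 0.32 at 12 months, the extremes at 3 months and the highest at 12 months all from Col4a6. In GRCm38.p6 the type IV genes lie in head-to-head pairs. Col4a1 and Col4a2 overlap by 85 bases on chromosome 8, Col4a4 and Col4a3 by 114 bases on chromosome 1, and Col4a6 and Col4a5 are 1274 bases apart on chromosome X. Both genes of the chromosome 8 pair were called higher at both ages, neither gene of the chromosome 1 pair was called, and on X only Col4a5 was called, by the dimmer of its probe sets. Elsewhere Col3a1 and Col5a2, both called higher at 3 months, lie 24624 bases apart on chromosome 1. Col6a2 and Col6a1, also both called higher at 3 months, lie 85161 bases apart on chromosome 10. Col9a1 and Col19a1 lie closer, 4944 bases apart on chromosome 1, and there Col19a1 was called lower at 3 months and Col9a1 was not called.

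Of the other collagens, the type VI chains, which form beaded filaments beside the fibrils, had 3 of 4 probe sets called higher at 3 months and 1 of 4 at 12 months. Col6a3 had signals of 115.5, 72.5 and 99.0 in Het_3M against 200.4, 151.0 and 175.2 in KO_3M. At 12 months they were 138.7, 131.8 and 131.7 in Het_12M against 196.2, 205.0 and 206.2 in KO_12M. The groups did not overlap at either age. Col6a3 was higher by 0.79 ± 0.16 on the log2 scale at 3 months (adjusted p 0.00525; 0.88 and 0.115 with the session block) and 0.54 at 12 months (adjusted p 0.0651).

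Col6a1 had signals of 76.9, 89.3 and 57.6 in Het_3M against 209.1, 115.6 and 146.4 in KO_3M, and 109.5, 59.6 and 59.5 in Het_12M against 157.0, 149.8 and 149.8 in KO_12M. Knockout mice were above heterozygous mice throughout. Col6a1 differed by a log2 fold change of 0.91 ± 0.24 at 3 months and 0.91 ± 0.24 at 12 months (adjusted p 0.02 and 0.0363), and 0.97 and 1.00 with the session block (adjusted p 0.274 and 0.552). The 3-month call was lost without mouse 3 of Het_3M (0.77) or mouse 1 of KO_3M (0.71). The 12-month call was lost without mouse 2 or 3 of Het_12M (0.79 each) or mouse 1 (0.89), 2 (0.92) or 3 (0.92) of KO_12M.

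Col6a2 rose at 3 months by 1 probe set (1.66 ± 0.49, adjusted p 0.0377; 0.332 with the session block), with signals from 14.6 to 43.9 in Het_3M and 62.4 to 177.9 in KO_3M. That call was lost without mouse 2 (1.42) or 3 (1.63) of Het_3M, mouse 1 (1.55) or 3 (1.38) of KO_3M or mouse 3 of KO_12M (1.66, adjusted p 0.0537), and the other Col6a2 probe set stood at 0.30. At 12 months the genotypes overlapped in the called probe set, since mouse 1 of KO_12M read 34.6.

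FACIT collagens, which attach to the surface of fibrils, had 1 of 17 probe sets called higher and 3 lower at 3 months, beside the 6.13% and 7.66% of all probe sets, so the count higher was about that of all probe sets. At 12 months 0 of 17 were called (limma, with 3 at an unadjusted p under 0.05). Col14a1, a chain that binds to type I fibrils, was higher by 0.77 ± 0.21 (adjusted p 0.0242; 0.290 with the session block), with signals of 58.8 to 77.0 in Het_3M and 91.2 to 176.1 in KO_3M. The call was lost without mouse 1 (0.75) or 2 (0.70) of Het_3M or mouse 1 (0.54) or 2 (0.80) of KO_3M. Its brighter probe set stood at 0.56 with an adjusted p of 0.0662.

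Col19a1, a minor chain best known from muscle and nerve, had signals of 115.1, 86.8 and 88.5 in Het_3M against 35.4, 40.9 and 52.8 in KO_3M. At 12 months they were 102.7, 63.2 and 101.4 in Het_12M and 98.3, 87.4 and 80.4 in KO_12M. KO_3M stood below the other groups, while the genotypes overlapped at 12 months. The difference on the log2 scale was -0.94 ± 0.21 at 3 months (adjusted p 0.0104; -0.65 and 0.360 with the session block) and 0.02 at 12 months. Its other probe set stood at 0.01 at 3 months.

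Col22a1, known from tissue junctions, had signals of 27.4, 11.3 and 12.5 in Het_3M against 1.7, 1.8 and 2.3 in KO_3M, and 6.6, 6.8 and 8.3 in Het_12M against 8.1, 7.5 and 12.4 in KO_12M. The probe set was below the array median on every array, and the KO_3M signals were below the 10th percentile of those arrays (4.1 to 4.8). Its log2 fold change at 3 months was -0.85 ± 0.17 (adjusted p 0.00500), -0.89 (adjusted p 0.0433) with the session block, and ran from -0.29 to -1.75 as the added amount went from 64 to 4. Its other probe set stood at 0.03.

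Col16a1, a chain of fibril surfaces in skin and smooth muscle, was lower at 3 months by 1 probe set (-0.62 ± 0.17, adjusted p 0.0275; -0.21 and 0.738 with the session block), with signals of 138.2 to 162.2 in Het_3M and 85.0 to 101.2 in KO_3M. The call was lost under quantile normalization (-0.54) and median scaling (-0.46). It was also lost without mouse 1 (-0.57) or 2 (-0.61) of Het_3M or mouse 1 (-0.56) or 2 (-0.62) of KO_3M.

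The 10th percentile of signal, a measure of the dim end, was 4.1 to 4.8 in KO_3M against 5.7 to 6.0 in Het_3M, and its part in the values of the dim probe sets was not tested. In Het_12M it was 5.8 to 6.5. In KO_12M it was 6.0 and 6.2 in mice 1 and 2 and 9.4 in mouse 3, whose array also had the highest median signal (71.4) and was run with another fluidics script, as was that of mouse 1 of KO_3M. Without both of those arrays 7 collagen probe sets were called higher at 12 months, in place of 9, and 0 between the ages in knockout mice (limma). Over the whole table that fit called 573 higher and 276 lower at 12 months, and 130 and 145 between the ages in knockout mice. Of the 25 collagen probe sets below the array median on all 12 arrays, 1 was called higher and 1 lower at 3 months. Of the 14 at or above it on all arrays, 5 were called higher and 1 lower at 3 months, and 5 higher at 12 months.

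In all, 21 of the 36 collagen genes, with 32 probe sets, were not called in either knockout comparison. Their log2 fold changes lay between -0.65 and 0.87 at 3 months and between -0.40 and 0.40 at 12 months, and 19 of their probe sets were below the array median on every array. Col18a1, the source of endostatin and a collagen that hepatocytes are known to make, had bright signals of 1452 to 2606 on its 2 probe sets at 3 months and stood at -0.03 and -0.07 there and at -0.07 and -0.40 at 12 months. Its -0.40 had an adjusted p of 0.102, and all 3 KO_12M mice lay below all 3 Het_12M mice in that probe set. Col15a1, the related chain of vessel and muscle basement membranes, stood at -0.57 at 3 months with an adjusted p of 0.105.

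The highest value among genes never called was that of Col20a1, at 0.87 (adjusted p 0.0758) from 1 of its 3 probe sets, the others standing at 0.09 and 0.24. The FACIT genes Col9a1, Col9a2, Col9a3 and Col12a1, the network formers Col8a1 and Col10a1, the transmembrane chains Col13a1, Col17a1 and Col25a1, the anchoring fibril chain Col7a1 and Col26a1 were likewise not called.

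**Figure D3:**
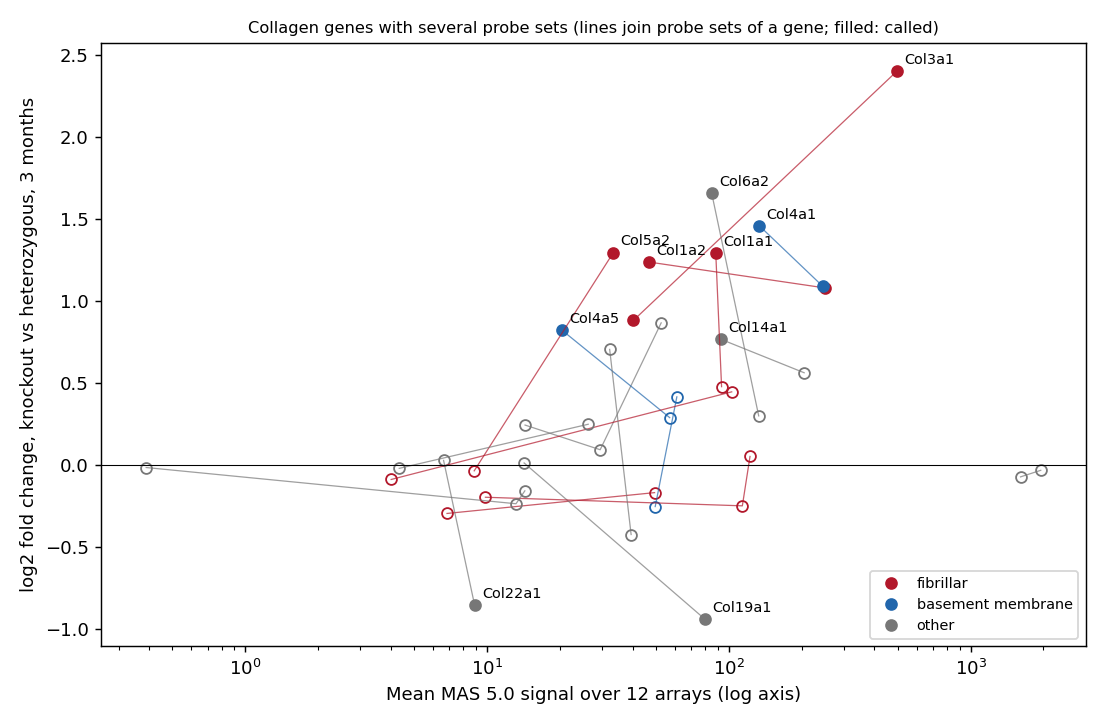
Collagen genes with several probe sets, with each probe set's mean signal over 12 arrays (x axis, log scale) against its log2 fold change at 3 months (y axis); lines join probe sets of a gene and filled points were called. Col3a1, Col1a2 and Col4a1 have all of their probe sets called, and Col19a1, Col22a1 and Col5a2 pair a called probe set with 1 near 0.

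The probe sets of a gene often differed. Among the 19 genes with several, 10 had at least 1 call at 3 months, and in 3 of them (Col1a2, Col3a1 and Col4a1) all were called. At 12 months 6 genes had a call, and in Col4a1 alone all probe sets were called. Signs were opposite between probe sets of a gene at 3 months in 8 of the 19.

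Between the ages, no collagen probe set was called in heterozygous mice (limma, 0 of 58, 7 at an unadjusted p under 0.05), where 0.27% of all probe sets were called and 12% had an unadjusted p under 0.05. In knockout mice Col3a1 was lower at 12 than at 3 months (-1.01 ± 0.20, adjusted p 0.0182), and Col2a1 (1.69 ± 0.34, adjusted p 0.0186), Col16a1 (0.72 ± 0.17, adjusted p 0.0319) and Col19a1 (0.83 ± 0.21, adjusted p 0.0410) were higher. Of all probe sets 3.01% were called higher and 1.48% lower in that comparison. Col2a1 was also higher at 12 months in heterozygous mice, without a call (1.00 ± 0.34, adjusted p 0.234, limma). Its mean signals were 37.9 ± 16.9 (SD) in Het_3M and 93.0 ± 44.7 in Het_12M, and 18.1 ± 11.7 in KO_3M and 91.8 ± 23.0 in KO_12M. The rise did not differ between the genotypes by a call (interaction 0.69 ± 0.48, adjusted p 0.554, limma). Col3a1 remained called with session as a block (limma, -1.26, adjusted p 0.0404). Col2a1 (1.77, 0.0546), Col16a1 (0.48, 0.214) and Col19a1 (0.72, 0.153) did not, and that fit called 5 collagen probe sets in all. These block values come from the third session alone, the only one that held both ages of knockout mice. They therefore set 1 KO_12M array, that of mouse 3, against the KO_3M mice. With the actin 3' to 5' ratio as a covariate, which averaged 4.92 in KO_3M and 2.79 in KO_12M, none of the 4 was called (limma). Over the whole table that fit called only 1 probe set higher and 0 lower. In it Col3a1 stood at -0.76 (adjusted p 0.237), Col2a1 at 1.91 (0.122), Col16a1 at 0.62 (0.262) and Col19a1 at 0.65 (0.331). Without the arrays with the conflicting age label Col3a1 stood at -0.82 (0.0750), Col16a1 at 0.67 (0.112) and Col19a1 at 0.74 (0.135). None of the 4 calls stood in every fit that left out 1 mouse. Without mouse 1 of KO_3M the Col3a1 value was -0.82 (adjusted p 0.0613) and without mouse 3 of KO_12M -0.88 (adjusted p 0.0610). Col2a1 missed the threshold without mouse 3 of KO_3M or mouse 1 of KO_12M (1.55 each) or mouse 3 of KO_12M (1.65). Col16a1 missed it without any of mice 1, 2 and 3 of KO_3M (0.67, 0.72 and 0.78) or mice 1 and 2 of KO_12M (0.72 and 0.60). Col19a1 stood in 3 of those 12 fits, with values from 0.74 to 0.95.

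In the fit of all arrays the median of all probe sets in that comparison was 0.15, and it was 0.01 under quantile normalization and -0.07 under median scaling. The collagen median was 0.10, -0.07 and -0.08 in the same order, so that it changed sign with the scaling. The split of all calls into higher and lower was 680 and 335, then 183 and 247, then 312 and 1993, and that of collagen calls 3 and 1, then 1 and 1, then 1 and 4.

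The interaction, which tests whether the knockout difference itself differed between the ages, called no collagen (limma, 0 of 58, 6 at an unadjusted p under 0.05), where 0.19% of all probe sets were called and 13.5% had an unadjusted p under 0.05. The smallest adjusted p was that of Col22a1 (0.105), and Col3a1 stood at -1.07 ± 0.28 with an adjusted p of 0.126. Col22a1 was called with session as a block (1.57, adjusted p 0.0234). That value rests on mouse 3 of KO_12M and mouse 1 of Het_3M, each the only array of its group in its session. The latter is an array with the conflicting age label, and the probe set is dim. The age and interaction comparisons share their arrays with the knockout comparisons.

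**Figure D4:**
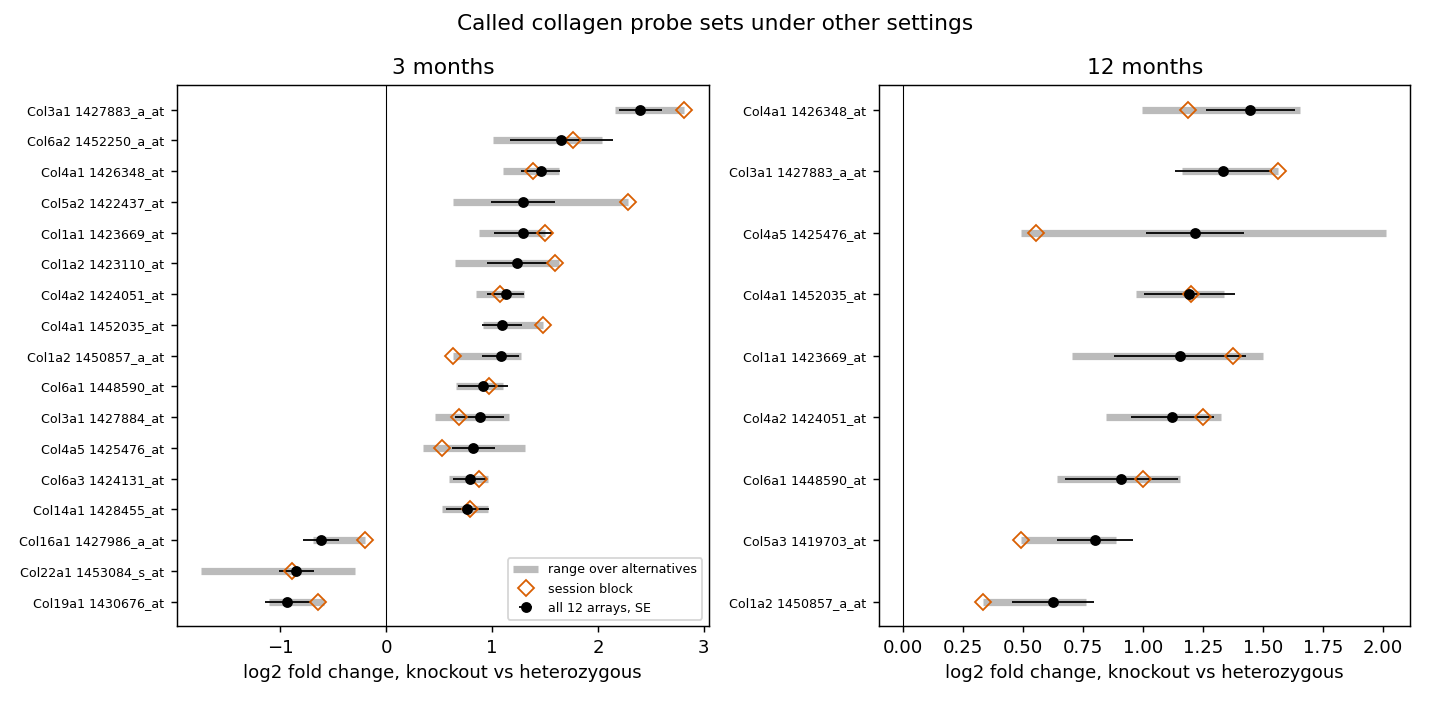
Log2 fold change, knockout against heterozygous (x axes), of each called collagen probe set (rows) at 3 months (left) and 12 months (right). Black points are the fit of all 12 arrays with its standard error, and grey bars the range over the alternatives that gave that probe set a value. Orange diamonds are the fit with scan session as a block, whose values for Col3a1 are 2.82 and 1.56.

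Within the second scan session, 2 KO_12M mice could be set beside 2 Het_3M mice, a difference that mixes genotype and age and was not tested. The 15 collagen probe sets called higher at either age ran from 0.52 to 1.67 there, with a median of 0.94, beside a median of 0.27 over all 58. These 4 arrays are among those on which the 15 were called, so the values are a description and no support for the calls.

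Of 5 marker lists of cell types in the liver, the stellate cell and fibroblast, cholangiocyte and macrophage lists had markers called higher in the knockout at both ages, and the endothelial and hepatocyte lists had none called higher. At gene level, where 6.71% of all 12393 genes were called higher and 8.30% lower at 3 months and 4.06% and 2.35% at 12 months, 6 of 14 stellate cell and fibroblast markers were called higher and 1 lower at 3 months, and 5 higher and none lower at 12 months. Their summed signal ran from 1612 to 1752 in Het_3M and 2920 to 3241 in KO_3M, and from 1766 to 2136 in Het_12M and 3016 to 3587 in KO_12M. Lum, a proteoglycan of collagen fibrils, was higher by 1.97 ± 0.22 and 1.90 ± 0.22 (adjusted p 8.95e-05 and 0.000161; 0.0262 and 0.123 with the session block). Vim, a mesenchymal filament protein, was higher by 1.43 ± 0.19 and 1.10 ± 0.19 (adjusted p 0.000270 and 0.00298; 0.0548 and 0.279 with the session block). Lrat, which makes the retinyl esters stored by quiescent stellate cells, was the 1 called lower at 3 months (-0.81 ± 0.22, adjusted p 0.0242; 0.151 with the session block) and stood at 0.53 at 12 months. Des (-0.37), Acta2 (-0.36), Pdgfra (-0.50) and Ngfr (-0.17) were below 0 at 3 months and not called, though the dimmer probe set of Pdgfra was called higher. With the session block 2 of the 7 calls of this list at 3 months and 0 of the 5 at 12 months remained (limma), and all kept their sign.

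The cholangiocyte list had 2 of 7 markers higher at 3 months and 1 at 12 months. Its summed signal ran from 85.8 to 137.1 in Het_3M and 319.9 to 333.3 in KO_3M, and from 72.7 to 104.5 in Het_12M and 162.8 to 484.8 in KO_12M, with 5 of its 7 markers below the 10th percentile on some array. The macrophage list had 9 of 12 markers higher and 1 lower at 3 months and 6 higher at 12 months, with sums of 2335 to 2643 in Het_3M and 4761 to 7992 in KO_3M, then 2670 to 3028 in Het_12M and 5124 to 5759 in KO_12M. With the session block 5 of its 10 calls at 3 months and 1 of 6 at 12 months remained, and 0 of the 2 and 0 of the 1 of the cholangiocyte list (limma). No list had a marker at 0.

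The endothelial list had 0 of 12 markers called higher and 1 lower at 3 months (Lyve1, -0.87 ± 0.20, adjusted p 0.0120; 0.289 with the session block) and none at 12 months, with sums of 1390 to 1487 in Het_3M and 1283 to 1796 in KO_3M, then 1210 to 1444 in Het_12M and 1573 to 1585 in KO_12M. The hepatocyte list had none of 8 called at 3 months and 3 lower at 12 months (0 of the 3 with the session block, limma). Its sums were 53755.9 to 57997.3 in Het_3M and 49214.7 to 55774.8 in KO_3M. At 12 months they were 51143.5 to 55310.1 in Het_12M and 29541.6 to 46176.5 in KO_12M. The part of each of these cell types in the collagen values was not tested.

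**Figure D5:**
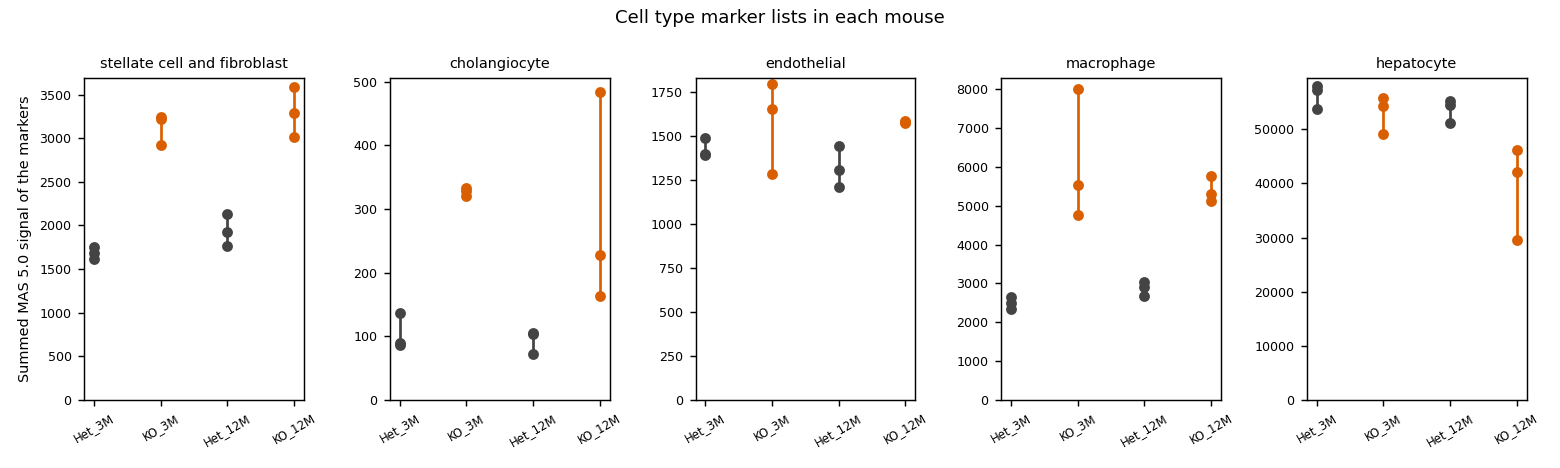
Summed MAS 5.0 signal (y axes, linear, from 0) of 5 cell type marker lists in each mouse, by group, with lines spanning the lowest and highest mouse. The stellate cell and fibroblast, cholangiocyte and macrophage sums of all knockout mice lie above those of all heterozygous mice.

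Genes that modify, trim and crosslink collagen chains were next, with every probe set counted and the gene's brightest one given first. Over all probe sets 6.13% were called higher and 7.66% lower at 3 months, and 3.46% and 1.83% at 12 months. Of the 22 probe sets of 15 genes for chain modification and folding, 4 were called higher and 1 lower at 3 months, and 1 higher and 1 lower at 12 months. Propeptide removal had 1 of 8 higher and 1 lower at 3 months and none called at 12 months, and crosslinking 1 of 7 higher at each age. Among all genes 6.71% were called higher and 8.3% lower at 3 months, and 4.06% and 2.35% at 12 months. At gene level the whole list had 5 of 24 genes higher and none lower at 3 months (median 0.03), and 2 higher and 1 lower at 12 months (median 0.11). None of these gene-level calls remained with session as a block (limma), and all kept their sign.

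At 3 months the lysyl hydroxylases Plod3 (0.80 ± 0.17, adjusted p 0.00728; 0.130 with the session block) and Plod1 (0.69 ± 0.16, adjusted p 0.0127; 0.119 with the block) rose. Pcolce, which speeds propeptide removal, rose by 1.35 ± 0.33 (adjusted p 0.0162; 0.0662 with the block), its other probe set standing at 0.67 (adjusted p 0.161). Crtap, a part of the prolyl hydroxylation complex, rose by 0.54 ± 0.14 (adjusted p 0.0199; 0.332 with the block). Serpinh1, the collagen chaperone, had 1 probe set at 0.67 and 0.66 (adjusted p 0.0636 and 0.122) and a dimmer one that rose by 1.36 ± 0.29 at 3 months (adjusted p 0.00710; 0.176 with the block) and stood at 1.02 at 12 months (adjusted p 0.0565).

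Loxl1, a crosslinking enzyme, rose at both ages (0.77 ± 0.21 and 0.80 ± 0.21, adjusted p 0.0262 and 0.0417; 0.363 and 0.581 with the session block). At 12 months Colgalt1, a collagen galactosyltransferase, rose by 0.58 ± 0.13 (adjusted p 0.0171; 0.510 with the block), with its other probe set at 0.29. Mia3, which helps export collagen from the endoplasmic reticulum, fell by 0.44 at 12 months (adjusted p 0.0304; 0.586 with the block), with its other probe set at -0.30. The probe sets called lower at 3 months belonged to P4ha1, a prolyl hydroxylase subunit (-1.14, adjusted p 0.0115; 0.465 with the block), and Bmp1, a propeptide-cutting enzyme (-0.95, adjusted p 0.0133; 0.322 with the block). The brightest probe sets of both stood at -0.07 and -0.08.

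The collagen receptor genes differed by probe set. None of the brightest probe sets of the 6 genes counted was called at either age. Of all their 19 probe sets, 4, those of Ddr1 and Itgb1, were called higher at 3 months and 2, both of Ddr1, at 12 months. The shares of all probe sets called higher were 6.13% at 3 months and 3.46% at 12 months. Ddr1, a receptor kinase for collagen, has 8 probe sets, which ran from -0.21 to 1.54 at 3 months and from 0.18 to 1.81 at 12 months. Those highest at each age had adjusted p of 0.00279 and 0.00147 (0.0639 and 0.168 with the session block). Its brightest stood at -0.13 and 0.25. Itgb1, the common beta chain of collagen-binding integrins, had 1 of 6 probe sets called, at 0.91 ± 0.18 at 3 months (adjusted p 0.00420; 0.168 with the block).

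Of the 21 probe sets of 10 collagen-cutting enzymes and their inhibitors, 5 were called higher at 3 months and 2 at 12 months, and none lower. Over all probe sets, at 3 and 12 months, 6.13% and 3.46% were called higher, and 7.66% and 1.83% lower. Pepd, a dipeptidase that releases proline, rose by 0.53 ± 0.13 at 3 months (adjusted p 0.0162; 0.0997 with the session block). The protease inhibitor Timp3 rose by 0.90 ± 0.26 at 3 months (adjusted p 0.0353; 0.138 with the block), while its other probe sets ran from -0.63 to 0.26 and were not called. Timp2 rose by 0.54 ± 0.16 (adjusted p 0.0417; 1.18 and 0.0336 with the block), with a second probe set called at 0.62 (adjusted p 0.0449) and others from -0.69 to 0.08. At 12 months Mmp14, a membrane-bound collagenase, rose by 0.83 ± 0.16 (adjusted p 0.00620; 0.525 with the block), its other probe set standing at 1.08 (adjusted p 0.0790). Mmp2, a gelatinase, was called higher at both ages by the dimmer of its probe sets (2.65 and 1.83, adjusted p 0.000182 and 0.00394; 0.129 and 0.331 with the block), the brighter standing at 0.57 and 0.52. Timp1 stood at 0.49 and 0.52 with adjusted p of 0.136 and 0.193.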

How the data were processed

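The intensity values analysed, deposited by the authors, are linear MAS 5.0 signals, per the submitters' processing notes. Their trimmed mean on each array, leaving out 2% at each end, lay between 149.98 and 149.99, so the arrays had been scaled before deposit. The sources used here do not give how this was done.

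The arrays were set to the same trimmed mean, and log2(signal + 16) was taken, which makes fold changes of dim probe sets smaller than their signal ratios. All 22626 probe sets other than the 64 controls were fitted together, with no filter on dim ones, in limma 3.58.1 (R 4.3.3, lmFit and eBayes with an intensity trend), using 12 arrays, 4 group means and 8 residual degrees of freedom. Calls were made at an adjusted p under 0.05 (Benjamini-Hochberg, over all 22626). Every adjusted p printed comes from limma, log2 fold changes carry a standard error, and signals an SD or a range. Of the 58 collagen probe sets, 29 would have passed a filter of 3 arrays at or above their own median. Replicate numbers do not pair the mice. The labels do not say that mice came from separate litters or days, so p-values measure only the spread between these mice. With 3 arrays a group, precision is limited throughout.

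Gene names come from the platform annotation and chromosome positions from the RefSeq annotation of GRCm38.p6. Values in every mouse are given for the collagen genes called in either knockout comparison, at most 12 by smallest p, with 1 probe set a gene and its uncalled probe sets beside it; from each pathway list up to 4 called genes in each direction and from each marker list up to 2 were eligible to be named. Lrat and the other stellate markers below 0, Serpinh1, Ddr1, Itgb1, P4ha1, Bmp1, Mmp2, Timp1 and the uncalled collagens singled out were named with their values known. Pathway lists and cell type markers were summarised by their brightest probe set, and the pathway lists by all probe sets too; that count and the session block for both kinds of list were added after seeing the data. Listed genes without a probe set that carried their symbol alone were left out, whether or not the array holds them. Counted were 7 of 10 cholangiocyte and 8 of 10 hepatocyte markers. Of the pathway lists, 24 of 32 maturation genes and 16 of 20 receptor and breakdown genes were counted. The members and lists were chosen with earlier results of these data known. Scan sessions were read from the experiment descriptions stored with the arrays. The limma fit was tested on simulated data. Python 3.11.15 (numpy 2.4.6, pandas 2.3.3, matplotlib 3.10.9) made tables and figures.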

Additional observations from a re-analysis of the deposited data

How the results depend on the processing

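The 29 alternatives covered the amount added before the logarithm, the scaling, a filter on dim probe sets, the fit, 1 probe set a gene, scan session, RNA quality, left-out arrays and a 2-fold ratio of mean signals. Each of the 30 calls had a value in 25 to 28 of them, and none of those values had the opposite sign. The 2-fold ratio gave counts only. At 3 months 17 collagen probe sets were called. The count was 3 with session as a block, 10 with 1 probe set a gene, 7 without the arrays with a conflicting age label, and 11 to 17 without 1 mouse at a time, with the lowest without mouse 1 of KO_3M. Of all probe sets, 206 were called higher and 211 lower with the session block, and 854 and 738 without the conflicting labels. With 1 probe set a gene, 880 were called higher and 1131 lower of 12393. At 12 months the 9 calls fell to 0 with session as a block and ranged from 6 to 9 without 1 mouse. For age in heterozygous mice, the count was 0 without any 1 mouse and 8 by a 2-fold ratio of mean signals. By that ratio 789 of all 22626 probe sets were higher and 631 lower. For age in knockout mice, where 4 were called, the count was 2 with quantile normalization and without the arrays with a fluidics error, 1 with only the groups compared and without the conflicting labels, 0 with the actin ratio as a covariate and without the 2 arrays run with another fluidics script, 10 by the 2-fold ratio, and 1 to 5 without 1 mouse. Whole-table counts in that comparison fell too, from 680 higher and 335 lower. They were 183 and 247 with quantile normalization, and 463 and 244 without the fluidics errors. Only the groups compared gave 78 and 42, and leaving out the conflicting labels 141 and 122. The actin ratio gave 1 and 0, and leaving out the other fluidics script 130 and 145. By the 2-fold ratio 3087 of all 22626 were higher and 508 lower. The interaction gave 1 call with session as a block, where 27 of all probe sets were called higher and 12 lower, and 0 without any 1 mouse. In that block fit the interaction rests on 1 array each of KO_12M and Het_3M. Calls in every fit without 1 mouse were 10 of 17 at 3 months, 6 of 9 at 12 months and 0 of 4 for age in knockout mice. The fit with replicate number as a block called 17, 8, 0, 3 and 0 in the order of these comparisons, and same-numbered mice correlated with r from -0.155 to 0.144. The collagen median at 3 months was 0.17 under quantile normalization, 0.21 under median scaling and -0.04 with session as a block. The calls of all probe sets split into 1388 higher and 1734 lower at 3 months, 1470 and 1311 under quantile normalization and 2177 and 1032 under median scaling; at 12 months the splits were 782 and 415, 716 and 465, and 534 and 438. The collagen calls at 3 months split into 14 and 3, 15 and 2, and 17 and 2. The cause of these shifts was not tested.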

Other observations

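Correlations among mice of 1 group were mostly low between the collagen probe sets called in either knockout comparison. The correlation of deviations from group means over the 12 arrays had a median of 0.12 over 19 pairs of called fibrillar probe sets of different genes (-0.61 to 0.76), of -0.08 over 28 pairs of a fibrillar with a basement membrane probe set, and of 0.02 over all 150 pairs of different genes. Of the 19 fibrillar pairs 13 were above 0. The highest was the brighter Col3a1 probe set with Col1a1 (0.757), and the lowest the same probe set with Col5a3 (-0.611). Over 5 pairs of basement membrane probe sets of different genes the median was -0.098 (-0.608 to 0.305), with Col4a2 at -0.49 and -0.608 against the Col4a1 probe sets. For 3 pairs of probe sets of the same gene the correlation ran from 0.22 to 0.41. Since even these were low, low values between genes cannot show that the genes vary apart. These pairs share arrays and scan sessions, and the values are a description with no test.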
